A study of Mus musculus with 30 samples.

Results

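Prostaglandin synthesis, breakdown and sensing are described here through 10 genes, chosen by name from the 32342 genes annotated. The rule used the genes' roles and no measured value. They are the cyclooxygenases Ptgs1 and Ptgs2, the terminal synthases Ptges, Ptgis and Ptgds, the breakdown enzyme Hpgd, and the receptors Ptger2, Ptger3, Ptger4 and Ptgfr. The study sorted mesenchymal cells from the lamina propria of untreated C57BL6/Nrj mice, 8 to 10 weeks old, and sequenced their RNA in bulk. Cells came from 3 mice, after removal of dead, lineage, endothelial, epithelial and other unwanted cells. The 10 populations, 5 of the small intestine (SI) and 5 of the colon, had 3 libraries each. The paper describes sorting SI and colonic subsets from the same mice, but which library came from which mouse is not stated. Libraries of different populations, also across the tissues, thus share mice in an unknown way, and the tests took them as independent. FB stands for fibroblasts and SMC for smooth muscle cells.

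In both tissues the pericyte gate was PDGFRa- ESAM-1+ PDPN-. The SI populations were otherwise SMCs (PDGFRa- ESAM-1+ PDPN+), CD34+ FB (ESAM-1- PDGFRaint CD34+), Fgfr2+ FB (ESAM-1- PDGFRaint CD34-) and PDGFRahi FB (ESAM-1- PDGFRahi CD34-). The SI CD34+ gate held Igfbp5+ FB and CD81+ FB together. The colonic populations were CD81+ FB (ESAM-1- PDPNint CD34+ CD90-), CD90+ FB (ESAM-1- CD34+ PDPNhi CD90+), Fgfr2+ FB (ESAM-1- PDPNhi CD34+ CD90-) and PDGFRahi FB (ESAM-1- PDPN+ CD34-). Gates of the same name therefore differed between tissues for Fgfr2+ FB, CD34- in the SI and CD34+ in the colon, and for PDGFRahi FB. No colonic SMCs were sorted, and the tissue of a library cannot be told apart from anything else that differed between the sorts of the 2 tissues.

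Libraries held between 2245052 and 19096945 estimated counts, with a median of 9601683, and 97.8 to 99.2% of them lay on the genes used. The lowest total was that of SI Fgfr2+ FB replicate 3. CPM stands for a count divided by the effective size of its library, on a scale shared by the 30 libraries, and ± after a level is the SD of 3 libraries (n = 3). Differences are log2 fold changes ± a standard error (SE), tested across every gene with enough counts. That SE was derived from the test, as the absolute log2 fold change over the square root of its F statistic. A gene was called when its Benjamini-Hochberg adjusted p in edgeR's quasi-likelihood test was under 0.05 and its log2 fold change was beyond 1.5 in either direction. In each tissue a population was set against the mean of the other 4, and each FB population also against the mean of the other FB alone. That second contrast was chosen after seeing the data. It used the same fit of all libraries of the tissue, so pericytes and SMCs still entered the filter, scaling and spread. In bulk RNA, fewer cells of a type and less RNA per cell cannot be told apart.

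Transcripts of the genes used for sorting or naming the populations were mostly highest where their names place them. Rgs5, a pericyte marker, averaged 30724 CPM in SI pericytes and 32959 CPM in colonic pericytes. Myh11, the smooth muscle myosin, averaged 11847 CPM in SMCs, and it also reached 6904 CPM in colonic pericytes. Pdgfra averaged 6362 CPM in SI PDGFRahi FB and 2467 CPM in colonic PDGFRahi FB, above every other population. Fgfr2 was highest in SI Fgfr2+ FB at 1685 CPM, whereas colonic Fgfr2+ FB averaged 476 CPM, near the 366 CPM of CD90+ FB. Cd34 averaged 1077 CPM in CD81+ FB, 625 CPM in SI CD34+ FB and 34.1 CPM in colonic PDGFRahi FB, and Cd81 averaged 375 CPM in CD81+ FB. Thy1, which encodes CD90, averaged 196 CPM in CD90+ FB and 214 CPM in SI pericytes. Rgs5 also averaged 5225 CPM in SMCs, 3778 CPM in SI CD34+ FB and 1747 CPM in SI Fgfr2+ FB. What part pericyte RNA had in the values of those populations was not tested.

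Epcam, which marks epithelium, stayed at or under 0.307 CPM in the 30 libraries, whereas Vil1 of the same list reached 27.6 CPM in SI pericyte replicate 2 and Cdh1 reached 11.8 CPM in colonic pericyte replicate 2. Ptprc, the pan-leukocyte marker, stayed at or under 22.2 CPM. Single libraries stood out for other cell types. Cd79a, a B cell gene, reached 191 CPM in SI pericyte replicate 1, and Hdc, which makes histamine and is used as a mast cell marker, reached 74.2 CPM in the same library. Lyz2, a macrophage gene, reached 91.0 CPM in colonic pericyte replicate 2, and Pecam1, an endothelial gene, reached 174 CPM in SMC replicate 3. Of the other endothelial genes, Tie1 reached 38.7 CPM in SI pericyte replicate 2. Of the other 3 mast cell markers, Kit, also a gene of interstitial cells of Cajal, reached 42.9 CPM in SI PDGFRahi FB replicate 3, Cpa3 stayed at or under 2.94 CPM and Mcpt4 was at 0 in all 30 libraries. The tuft cell channel Trpm5 stayed at or under 6.07 CPM, whereas the tuft cell factor Pou2f3 averaged 13.8 CPM in SI pericytes and reached 23.2 CPM in their replicate 2. Dclk1, also used as a tuft cell marker, was highest in CD90+ FB, where it averaged 283 CPM. The glial gene Sox10 stayed at or under 0.427 CPM. The mesothelial gene Msln stayed at or under 0.509 CPM, and Lrrn4 of that list reached 7.3 CPM in SI pericyte replicate 2. Ano1, a gene of interstitial cells of Cajal, averaged 752 CPM in SI pericytes and 712 CPM in colonic pericytes, against 79.6 CPM or less in the other populations. Etv1 of the same list was placed otherwise, at 438 CPM in SI PDGFRahi FB and 175 CPM in colonic PDGFRahi FB, against 44.7 and 74.7 CPM in SI and colonic pericytes.

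Prostaglandins are short-lived lipids made from arachidonic acid that phospholipases free from membranes. Cyclooxygenases convert it to the intermediate PGH2, terminal synthases turn PGH2 into PGE2, prostacyclin, PGD2 or other forms, and receptors on nearby cells sense them. In the gut wall, PGE2 from stromal cells is known to support epithelial repair and stem cells and to modulate blood flow, motility and immune cells, and the enzyme encoded by Hpgd ends its action.

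Of the 100 pairs of a gene and a population, 55 averaged more than 10 CPM and 18 had 3 counts or fewer in every library. Ptgs1 and Ptges passed 10 CPM in 9 of 10 populations, Ptger4 in 8, and Ptgs2, Ptgis and Hpgd in 7 each. Ptger2 did so in 5 populations and Ptgfr in 3. Ptger3 and Ptgds did so in none. Enough counts for a test were found for 9 of the 10 genes in both tissues, and Ptgds was not tested in any comparison. Ptgs1, Ptgs2, Ptges, Hpgd, Ptger4 and Ptgfr had their highest population mean in the colon, and Ptgis and Ptger2 had theirs in the SI. The highest means of Ptger3 and Ptgds, both low, were also in the colon.

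**Figure D1:**
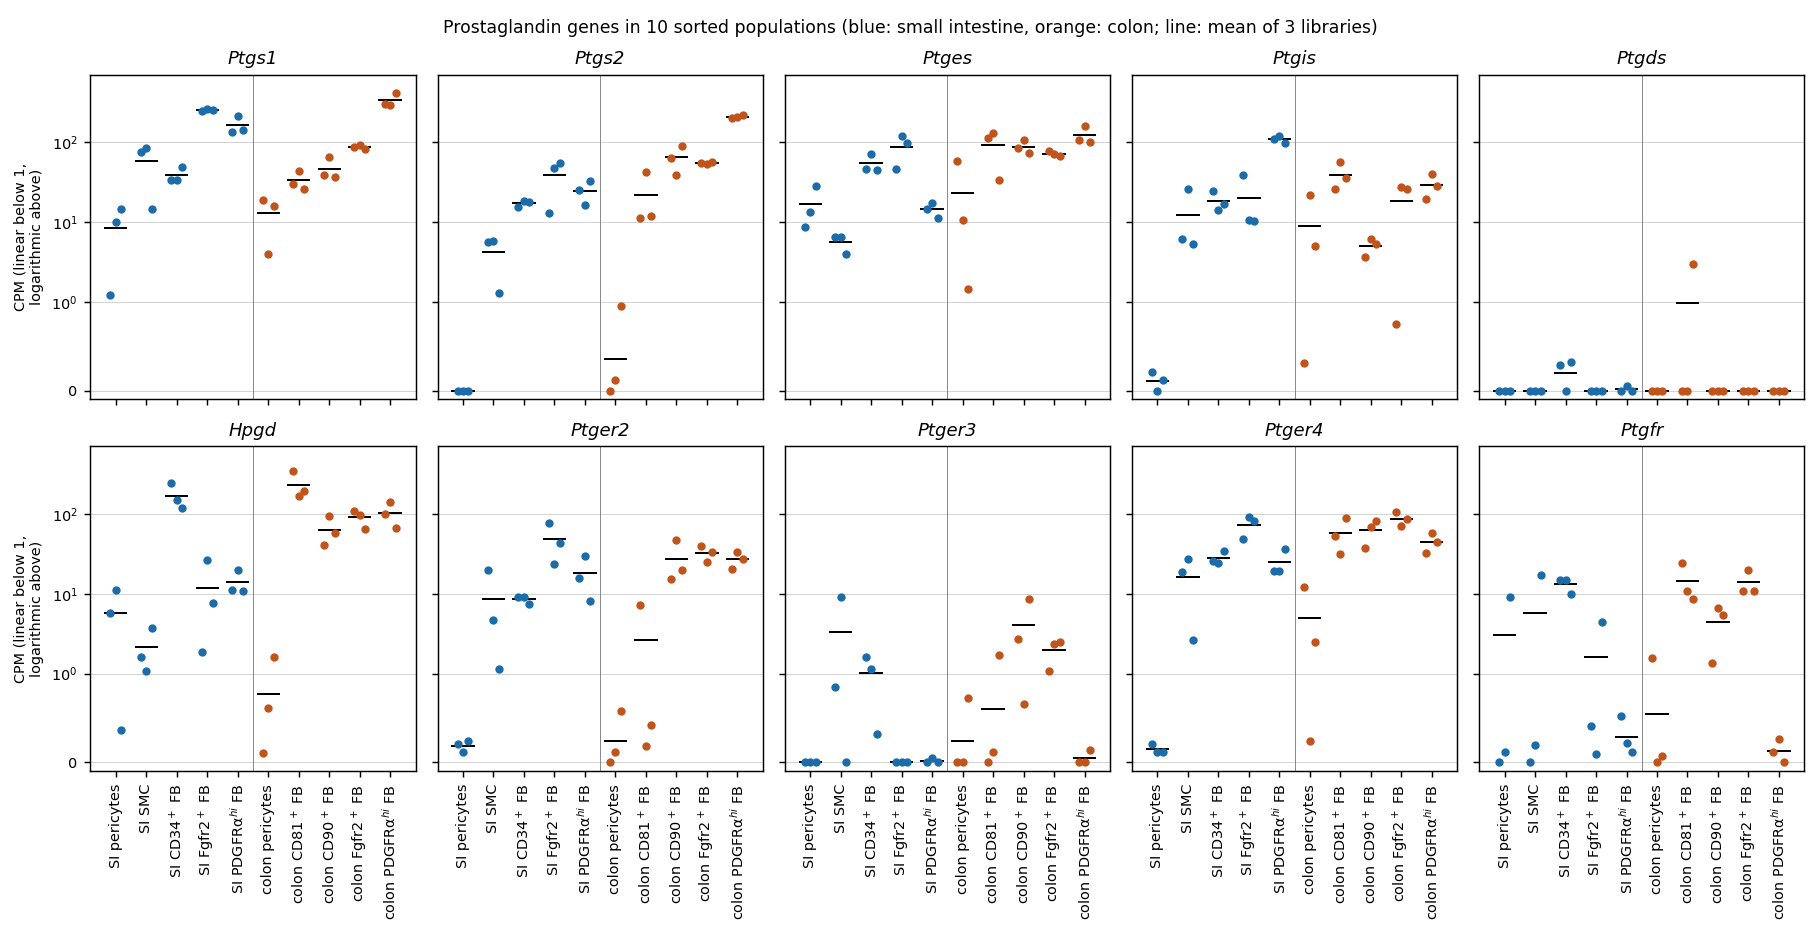
Levels of the 10 prostaglandin genes in the 10 sorted populations, in CPM on an axis that is linear below 1 and logarithmic above; each point is a library and each line the mean of 3 libraries. Ptgs1 and Ptgs2 are highest in colonic PDGFRahi FB, Ptgis in SI PDGFRahi FB, and Hpgd in colonic CD81+ FB and SI CD34+ FB, while the points of both pericyte populations lie low for most genes.

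In pericytes of both tissues the members called were all lower. In SI pericytes, 5 of the 9 genes tested were lower than in the mean of the other SI populations, against 15.5% of all 16232 genes called there in either direction. The 5 were Ptgs1, Ptgs2, Ptgis, Ptger2 and Ptger4. In colonic pericytes, 5 of 9 genes were also lower, namely Ptgs1, Ptgs2, Hpgd, Ptger2 and Ptger4, against 16.6% of 16456 genes called. Between the pericytes of the 2 tissues, only Ptgs1, Ptges and Hpgd had enough counts, and 0 of these 3 were called by edgeR's quasi-likelihood test. That comparison called 0% of 13368 genes, while 1091 genes had an unadjusted p under 0.05 and DESeq2 called 348. None of the 3 genes had an unadjusted p under 0.05 or was called by DESeq2, which does not show that they were alike. With all 30 libraries in 1 model, 3 of 9 members (Ptgis, Hpgd and Ptger4) and 998 of 17555 genes were called in that comparison.

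Among the other SI populations, SMCs had 3 of 9 genes called (Ptger3 higher, Ptges and Hpgd lower) against 5.08% of all genes. SI CD34+ FB had 3 of 9 higher (Ptgs2, Ptges and Hpgd) against 4.21%. SI Fgfr2+ FB had 5 of 9 higher (Ptgs1, Ptgs2, Ptges, Ptger2 and Ptger4) against 3.02%. SI PDGFRahi FB had 3 of 9 higher (Ptgs1, Ptgs2 and Ptgis) against 4.65%. Leaving out SMC replicate 2 changed the SMC count to 1 and that of SI CD34+ FB to 5, and leaving out any 1 SI CD34+ FB replicate changed the latter to 1. Without SI CD34+ FB replicate 1, 2 or 3, the genes called there over all genes also fell, from 683 to 352, 386 and 391. Pericytes with near 0 counts are part of the mean these populations were set against, so the same genes were also compared among FB alone. There, SI CD34+ FB kept 1 call of 9 (Hpgd higher, against 2.51% of all genes), and SI PDGFRahi FB had 2 (Ptgis higher and Ptges lower, against 3.12%). SI Fgfr2+ FB had 0 of 9, against 0.967% of all genes, with 5 genes at an unadjusted p under 0.05 (1897 over all genes) and 1 gene (Ptges) called by DESeq2 (549 over all genes). Without SI CD34+ FB replicate 1 the SI CD34+ FB count among FB was 0, and without SI pericyte replicate 1 or 3 or SMC replicate 3 it was 2. The SI PDGFRahi FB count among FB was 0 without any 1 of the SI CD34+ FB or SI PDGFRahi FB replicates, or without SI Fgfr2+ FB replicate 2 or 3.

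Among the other colonic populations, CD81+ FB had 2 of 9 genes higher (Hpgd and Ptgfr) against 5.96% of all genes. CD90+ FB had 0 of 9 called by edgeR's quasi-likelihood test, against 1.29% of all genes, with 4 at an unadjusted p under 0.05 (1569 over all genes) and 1 (Ptgs2) called by DESeq2 (340 over all genes). Colonic Fgfr2+ FB had 1 of 9 higher (Ptgfr) against 1.49%. Colonic PDGFRahi FB had 4 of 9 called (Ptgs1, Ptgs2 and Hpgd higher, Ptgfr lower) against 4.13%. Among FB alone, colonic PDGFRahi FB had 3 of 9 called (Ptgs1 and Ptgs2 higher, Ptgfr lower) against 3.51% of all genes. CD81+ FB had 1 of 9, with Ptgs1 lower, against 3.71%. CD90+ FB had 0 of 9 against 0.115%, with 4 genes at an unadjusted p under 0.05 (821 over all genes) and 0 by DESeq2 (83 over all genes). Colonic Fgfr2+ FB had 0 of 9 against 0.146%, with 1 gene at an unadjusted p under 0.05 (1060 over all genes) and 0 by DESeq2 (112 over all genes).

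Leaving out 1 library moved several of the colonic counts. Without colonic PDGFRahi FB replicate 1 or 2 their count was 2, that of Ptgs1 and Ptgs2, while 424 and 433 of all genes were called in place of 680, and without replicate 3 their count among FB was 1. The CD90+ FB count was 1 without colonic pericyte replicate 1 or 3 or CD81+ FB replicate 1 or 2. For colonic Fgfr2+ FB the count was 4 without colonic pericyte replicate 3, and 0 without CD81+ FB replicate 3 or any 1 replicate of CD90+ FB, colonic Fgfr2+ FB or colonic PDGFRahi FB. Without their own replicates 1, 2 and 3, colonic Fgfr2+ FB had 153, 149 and 134 of all genes called in place of 246. The CD81+ FB count among FB, 1 for Ptgs1, was 0 without CD81+ FB replicate 3 and 4 without colonic pericyte replicate 1 or 3.

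Ptgs1 on chromosome 2 (GRCm38, 36230426 to 36252272) encodes the constitutive cyclooxygenase, which makes PGH2 at rest. Colonic PDGFRahi FB held the most, 298, 289 and 413 CPM (334 ± 69.2). SI Fgfr2+ FB followed with 246, 259 and 255 CPM (253 ± 7.01), and SI PDGFRahi FB with 133, 214 and 141 CPM (163 ± 44.6). Next came colonic Fgfr2+ FB, with 86.7, 91.1 and 81.5 CPM (86.4 ± 4.78). No library of any of these 4 populations overlapped one of its neighbours among the 4. From colonic Fgfr2+ FB downwards each population overlapped the next, through SMCs (57.6 ± 37.6 CPM), CD90+ FB (46.6 ± 15.5), SI CD34+ FB (38.5 ± 9.08) and CD81+ FB (33.1 ± 9.01). Pericytes were lowest, at 18.9, 3.93 and 15.8 CPM in the colon and 1.23, 9.86 and 14.4 CPM in the SI, and each of these 6 libraries lay under every other library of its tissue.

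Colonic PDGFRahi FB exceeded the mean of the other colonic populations in Ptgs1 by a log2 fold change of 3.21 ± 0.31 (adjusted p 4.0e-06, edgeR quasi-likelihood, Benjamini-Hochberg). Among colonic FB alone the difference was 2.72 ± 0.33 on the log2 scale, a 6.58-fold difference (adjusted p 5.4e-05 in the same test). All 3 libraries lay above every other colonic library, and both calls held whichever library was left out. In SI Fgfr2+ FB, Ptgs1 was 2.56 ± 0.45 higher on the log2 scale than in the other SI populations (adjusted p 0.00347), again with no overlap. Among SI FB alone it was 1.63 ± 0.54 higher, with an adjusted p of 0.222, which was not called. SI PDGFRahi FB were 1.84 ± 0.46 higher on the log2 scale (adjusted p 0.0258), with all 3 libraries under those of SI Fgfr2+ FB and above the other SI libraries. That call was lost without SI CD34+ FB replicate 1 or 2 or any 1 of the 3 SI PDGFRahi FB replicates, with values from 1.57 to 1.98 over all refits and an adjusted p of up to 0.206, and with protein-coding transcripts alone (adjusted p 0.0503).

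Ptgs1 was low in pericytes by -3.48 ± 0.66 on the log2 scale in the SI (adjusted p 0.00155 in edgeR's quasi-likelihood test, Benjamini-Hochberg) and by -2.64 ± 0.43 in the colon (adjusted p 0.00027). CD81+ FB were -1.72 ± 0.41 lower than the other colonic FB (adjusted p 0.0203), with some overlap of libraries. Without CD81+ FB replicate 1 this became -1.67 with an adjusted p of 0.0751, and without replicate 3 it became -1.59 with an adjusted p of 0.0754, so that neither was called.

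The Ptgs1 reads of pericytes lay mostly on a different transcript from those of FB. The protein-coding transcript Ptgs1-201 was given 0 estimated counts in all 3 colonic pericyte libraries, whereas the processed transcript Ptgs1-204 was given 181, 27.7 and 154. In SI pericytes Ptgs1-201 was given 0, 21.3 and 0 estimated counts, and Ptgs1-204 was given 5.9, 59.7 and 119. Colonic PDGFRahi FB had 2233, 2043 and 2671 estimated counts on Ptgs1-201, and SI Fgfr2+ FB had 3415, 2468 and 615. Ptgs1-204 was not confined to pericytes, with 97.3 estimated counts in SMC replicate 3, 137 in CD90+ FB replicate 3 and 636 in SI PDGFRahi FB replicate 2. Colonic pericyte replicate 3 also had 61.0 on Ptgs1-202, which retains an intron. Short single reads assign transcripts with error, and no test was made on these counts. With protein-coding transcripts alone, an alternative chosen after seeing the data, Ptgs1 was still called lower in SI and colonic pericytes, with adjusted p of 0.00158 and 1.9e-08 in edgeR's quasi-likelihood test, Benjamini-Hochberg. Fitted sizes are left out because these pericyte counts were near 0.

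Ptgs2 on chromosome 1 (150100031 to 150108227) encodes the inducible cyclooxygenase, whose RNA rises quickly after stimulation and decays fast. Colonic PDGFRahi FB again held the most, at 198, 203 and 216 CPM (206 ± 9.57), and all 3 lay above every other library. CD90+ FB held 63.5, 38.9 and 89.9 CPM (64.1 ± 25.5). Colonic Fgfr2+ FB held 55.1, 53.3 and 55.7 CPM (54.7 ± 1.27). These 2 populations overlapped, as did each of the next 4 with its neighbour, namely SI Fgfr2+ FB (38.2 ± 22.1), SI PDGFRahi FB (24.7 ± 8.29), CD81+ FB (21.8 ± 18.1) and SI CD34+ FB (17.2 ± 1.42). SMCs were lower, with 5.64, 5.83 and 1.27 CPM. No Ptgs2 count was found in any SI pericyte library, and colonic pericytes had 0, 1 and 13 counts, which made 0.358 ± 0.517 CPM.

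Against a floor of 3 counts per library, Ptgs2 was at least 47.1-fold lower in SI pericytes than the mean CPM of the other 4 SI populations (adjusted p 6.9e-05 in edgeR's quasi-likelihood test with Benjamini-Hochberg adjustment). Floors and intervals cover counting error only. In colonic pericytes Ptgs2 was -7.25 ± 0.85 on the log2 scale (adjusted p 7.1e-06), with no overlap, and without colonic pericyte replicate 3, which held most of its counts, -9.84. Colonic PDGFRahi FB were 3.95 ± 0.45 higher on the log2 scale than the mean of the other colonic populations (adjusted p 2.4e-05), which became 4.6 without colonic pericyte replicate 3. Among colonic FB alone the difference was 2.29 ± 0.48, a 4.88-fold difference (adjusted p 0.0076). Without colonic PDGFRahi FB replicate 3 it was 2.25 with an adjusted p of 0.0509, and was not called.

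The SI calls of Ptgs2 did not carry over to FB alone. Set against the 4 other SI populations, edgeR's quasi-likelihood test with Benjamini-Hochberg adjustment gave adjusted p values of 0.00111 for SI Fgfr2+ FB, 0.00273 for SI PDGFRahi FB and 0.0162 for SI CD34+ FB. The last was lost without any 1 of the 3 SI CD34+ FB replicates, with an adjusted p of up to 0.0741. Fitted sizes are left out, since the mean they refer to contains pericytes at 0 counts. Among SI FB alone, SI Fgfr2+ FB were 0.84 ± 0.64 on the log2 scale (adjusted p 0.690), SI PDGFRahi FB were -0.014 ± 0.66 (adjusted p 1.00), and SI CD34+ FB were -0.82 ± 0.68 (adjusted p 0.949). The libraries of these 3 populations overlapped.

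Ptgs2 is itself an immediate early gene, so the other immediate early genes were summed in each library as a measure of acute stimulation or handling. Their 11 genes summed to 1497, 1727 and 2231 CPM in colonic PDGFRahi FB, where Ptgs2 was highest. In colonic pericytes they summed to 9992, 13479 and 12167 CPM, and in SI pericytes to 6048, 16028 and 8152 CPM. No pericyte library overlapped a colonic PDGFRahi FB library in either measure, with Ptgs2 higher in PDGFRahi FB and the sum higher in pericytes. CD81+ FB had sums of 9953, 14081 and 9436 CPM, beside 11, 42.7 and 11.8 CPM of Ptgs2. SI Fgfr2+ FB had sums of 780.3, 638 and 759 CPM, which overlapped those of SI PDGFRahi FB (1215, 716 and 1078.5 CPM). Egr1 was the most abundant of the 11 in 9 of the 10 populations and Dusp1 in SMCs.

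In edgeR's quasi-likelihood test all 11 immediate early genes were higher in SI pericytes than in the other SI populations (against 15.5% of all genes), and 10 were without SI pericyte replicate 2. In colonic pericytes 6 of 11 were higher (against 16.6%), and in colonic PDGFRahi FB 8 of 11 were lower (against 4.13%), with 7 to 10 when 1 library was left out. SI Fgfr2+ FB had 10 of 11 lower than colonic Fgfr2+ FB (against 3.09%), and 7 to 9 when 1 library was left out. In PDGFRahi FB, where Ptgs2 was called lower in the SI, 0 of 11 were called between the tissues (against 1.76%), with 6 at an unadjusted p under 0.05, 2 by DESeq2 and 0 to 2 when 1 library was left out. SMCs and SI Fgfr2+ FB had 3 of 11 lower than the other SI populations (against 5.08% and 3.02%), SI CD34+ FB had 3 higher (4.21%) and SI PDGFRahi FB had 2 lower (4.65%). When 1 library was left out these counts ran from 1 to 5, 1 to 4, 1 to 4 and 0 to 3. In the colon, CD81+ FB had 1 higher (against 5.96%) and CD90+ FB had 2 lower (1.29%), with 1 to 3 and 1 to 2. Colonic Fgfr2+ FB had 0 of 11 (against 1.49%), with 4 at an unadjusted p under 0.05 and 0 by DESeq2. The pericytes of the 2 tissues and the CD34+ gates had 0 of 11 each (against 0% and 1.2%), with 2 and 6 at an unadjusted p under 0.05 and 0 and 1 by DESeq2.

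Among FB alone, SI CD34+ FB had 7 of 11 immediate early genes higher (against 2.51% of all genes), CD81+ FB had 8 higher (3.71%), colonic PDGFRahi FB had 5 lower (3.51%) and SI Fgfr2+ FB had 1 lower (0.967%). When 1 library was left out these counts ran from 3 to 7, 5 to 8, 4 to 8 and 0 to 2. SI PDGFRahi FB, CD90+ FB and colonic Fgfr2+ FB had 0 of 11 by edgeR's quasi-likelihood test (against 3.12%, 0.115% and 0.146%), with 4, 4 and 6 at an unadjusted p under 0.05 and 0 by DESeq2. These genes respond to stress during tissue digestion and sorting as well as to signals in life, and their part in the Ptgs2 levels was not tested.

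**Figure D2:**
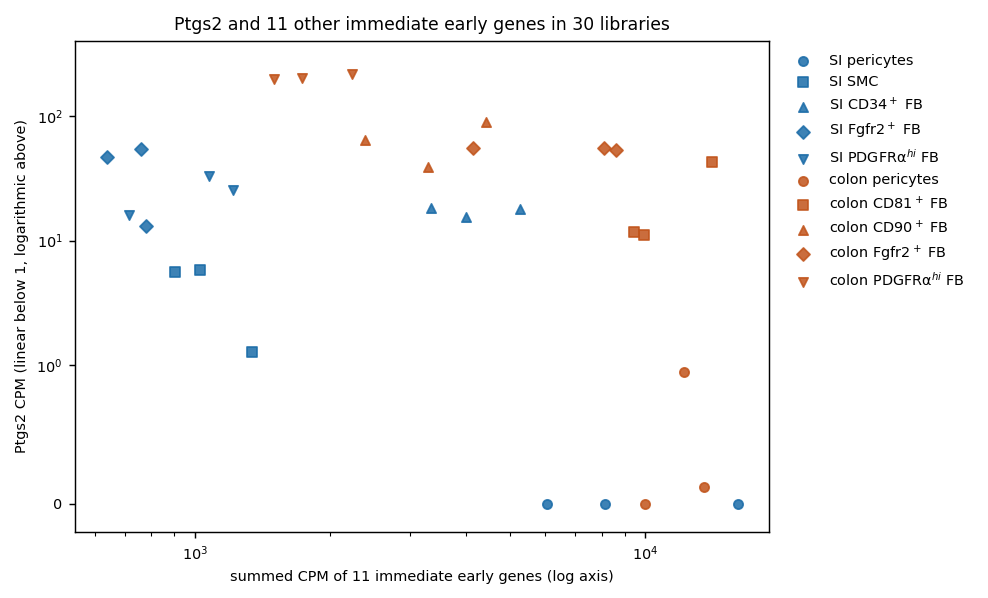
Ptgs2 level of each of the 30 libraries in CPM (linear below 1, logarithmic above) against the summed CPM of 11 other immediate early genes (logarithmic axis), by population. The 3 libraries of colonic PDGFRahi FB lie highest for Ptgs2 with sums from 1497 to 2231 CPM, and the 6 pericyte libraries lie at or near 0 counts of Ptgs2 with sums from 6048 to 16028 CPM.

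Ptges on chromosome 2 (30889471 to 30929863) encodes the inducible synthase that turns PGH2 into PGE2. Colonic PDGFRahi FB held 106, 158 and 101 CPM (122 ± 31.7), while SI PDGFRahi FB held 14.6, 17.2 and 11.3 CPM (14.4 ± 2.96). SI Fgfr2+ FB held 46.5, 119.8 and 96.3 CPM (87.5 ± 37.4), and SI CD34+ FB held 45.7, 70.9 and 45.1 CPM (53.9 ± 14.7). The SI PDGFRahi FB libraries thus lay under every library of the other SI FB and of colonic PDGFRahi FB. The other colonic FB averaged 91.6 ± 50.9 CPM in CD81+ FB, 87.4 ± 17.5 in CD90+ FB and 71.3 ± 4.87 in Fgfr2+ FB. Down the order, every population overlapped the next, except SI PDGFRahi FB and SMCs, the lowest at 6.49, 6.52 and 3.94 CPM. Colonic pericytes were uneven, with 57.3, 10.7 and 1.46 CPM.

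In SMCs Ptges was -2.57 ± 0.53 on the log2 scale against the other SI populations (adjusted p 0.00685, edgeR quasi-likelihood with Benjamini-Hochberg), and the 3 libraries lay under every other SI library. SI Fgfr2+ FB were 2.37 ± 0.39 higher (adjusted p 0.00204), a call that held whichever library was left out. Among SI FB alone their difference was 1.60 ± 0.47 with an adjusted p of 0.145, and was not called. SI PDGFRahi FB were -2.21 ± 0.54 on the log2 scale against the other SI FB, a 4.62-fold difference (adjusted p 0.0291). That call was lost without any 1 of the 3 SI CD34+ FB or the 3 SI PDGFRahi FB replicates, or SI Fgfr2+ FB replicate 2 or 3, with values from -2.37 to -2.06 and an adjusted p of up to 0.166. SI CD34+ FB were 1.54 ± 0.40 higher than the other SI populations (adjusted p 0.0341). Leaving out 1 library ended that call in 10 of 15 refits, those without SI CD34+ FB replicates 1, 2 or 3, SI pericyte replicates 1 or 2, SMC replicate 3, SI PDGFRahi FB replicates 1 or 3, or SI Fgfr2+ FB replicates 1 or 3, with values down to 1.3 and an adjusted p of up to 0.323. It was also lost without a filter on low counts (adjusted p 0.0603), with all 30 libraries in 1 model (0.0738) and with protein-coding transcripts alone (0.111).

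Ptgis on chromosome 2 (167191805 to 167240604) encodes prostacyclin synthase, whose product relaxes vessels and keeps platelets quiet. SI PDGFRahi FB held 109, 118 and 96.2 CPM (108 ± 11), above each of the other 27 libraries. CD81+ FB were next with 25.9, 55.7 and 35.9 CPM (39.2 ± 15.1), and colonic PDGFRahi FB held 19.2, 39.5 and 28.0 CPM (28.9 ± 10.2). From CD81+ FB down to CD90+ FB (5.05 ± 1.26 CPM) each population overlapped the next. Libraries of 1 population differed widely in places, as in colonic Fgfr2+ FB, with 0.750, 27.3 and 26.1 CPM. SI pericytes had 1, 0 and 1 counts.

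SI PDGFRahi FB exceeded the other SI FB in Ptgis by 2.52 ± 0.61 on the log2 scale, a 5.72-fold difference (adjusted p 0.0267, edgeR quasi-likelihood with Benjamini-Hochberg), with no overlap. That call was lost without the same 8 libraries as for Ptges, that is any SI CD34+ FB or SI PDGFRahi FB replicate, or SI Fgfr2+ FB replicate 2 or 3. Values over the 15 refits ran from 2.36 to 3.01 on the log2 scale, with an adjusted p of up to 0.135. Against all 4 other SI populations the adjusted p was 3.0e-05, and the call held whichever library was left out. In SI pericytes the mean of the other 4 SI populations was 423 times as high, with a 95% exact Poisson interval of 117 to 3489 on their 2 counts (adjusted p 5.3e-05). The call was kept without SI pericyte replicate 1 or 2, but the fitted difference moved by over 1.5 times, larger without the former and smaller without the latter. In the colon Ptgis was called in 0 of 5 populations by edgeR's quasi-likelihood test or by DESeq2, and CD81+ FB and CD90+ FB had an unadjusted p under 0.05 (0.0421 and 0.0499).

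The ratio of the synthases per transcript length turned between the 2 kinds of PDGFRahi FB. Per kilobase, Ptges over Ptgis was 0.135, 0.0796 and 0.0650 in the SI PDGFRahi FB libraries and 3.97, 3.57 and 3.06 in the colonic ones. Prostacyclin synthase RNA was thus the higher of the pair in all 3 SI libraries, and PGE2 synthase RNA in all 3 colonic libraries.

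Ptgds on chromosome 2 (25466709 to 25470046) encodes a synthase of PGD2. It had 35 counts in CD81+ FB replicate 3, all on a transcript with a retained intron, and 3 or fewer counts in each of the other 29 libraries. Such counts were too few for a test. Hpgds, the other PGD2 synthase, averaged from 1.52 CPM in CD90+ FB to 6.89 CPM in SI pericytes.

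Hpgd on chromosome 8 (56294585 to 56321043) encodes 15-hydroxyprostaglandin dehydrogenase, the enzyme that starts the breakdown of PGE2 and related prostaglandins. Colonic CD81+ FB held 341, 167 and 193 CPM (233 ± 94.0), and SI CD34+ FB held 243, 149 and 118 CPM (169.9 ± 64.8). Both are CD34+ FB, and they overlapped each other. Colonic PDGFRahi FB held 99.6, 143 and 66.4 CPM (103 ± 38.3). Colonic Fgfr2+ FB held 109, 97.7 and 65.7 CPM (90.7 ± 22.4). CD90+ FB held 40.3, 93.0 and 57.1 CPM (63.5 ± 26.9). Each of these 5 populations overlapped the next, and then came a gap, because every other population stayed at or under 26.4 CPM. SI PDGFRahi FB held 11, 20.1 and 10.8 CPM, and SI Fgfr2+ FB held 1.87, 26.4 and 7.72 CPM, so that in the SI the CD34+ FB stood alone.

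SI CD34+ FB exceeded the other SI populations in Hpgd by 4.66 ± 0.63 on the log2 scale (adjusted p 0.000161, edgeR quasi-likelihood with Benjamini-Hochberg), with no overlap. Among SI FB alone the difference was 3.71 ± 0.78, a 13.1-fold difference (adjusted p 0.0129). Without SI CD34+ FB replicate 1 it was 3.36 with an adjusted p of 0.102 and was not called, and without SI Fgfr2+ FB replicate 2 it was 4.42. Colonic CD81+ FB exceeded the other colonic populations by 3.14 ± 0.37 (adjusted p 2.9e-05), with all 3 libraries above every other colonic library. Among colonic FB alone the difference was 1.48 ± 0.41 (adjusted p 0.0449), just short of the fold required. In colonic pericytes, with 1, 5 and 22 counts, Hpgd was -7.02 ± 0.69 on the log2 scale (adjusted p 9.2e-07), and -8.21 without replicate 3.

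Weaker Hpgd calls rested on few libraries. In SMCs, with 1.60, 1.09 and 3.70 CPM, the log2 fold change of -3.32 ± 0.93 (adjusted p 0.0457, edgeR quasi-likelihood with Benjamini-Hochberg) was lost in 11 of 15 refits. These left out any 1 replicate of the SMCs, SI CD34+ FB or SI PDGFRahi FB, or SI Fgfr2+ FB replicate 2 or 3, with an adjusted p of up to 0.175, and the value was -3.91 without SMC replicate 3. It was also lost with protein-coding transcripts alone (adjusted p 0.0559). In colonic PDGFRahi FB the log2 fold change of 1.67 ± 0.39 (adjusted p 0.0154) was lost without colonic PDGFRahi FB replicate 1 or 2, with values down to 1.37 and an adjusted p of up to 0.184, and with all 30 libraries in 1 model (adjusted p 0.0956). Among colonic FB alone the difference was -0.086, so its sign turned once pericytes were no longer part of the comparison.

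Breakdown and synthesis were set side by side as the per-kilobase level of Hpgd over the sum of Ptgs1 and Ptgs2. The ratio was 7.40, 3.44 and 2.49 in SI CD34+ FB and 8.80, 2.52 and 6.88 in CD81+ FB. In SI PDGFRahi FB it was 0.103, 0.125 and 0.0758, and in SI Fgfr2+ FB it was 0.0107, 0.108 and 0.0264. CD34+ FB of the SI and CD81+ FB of the colon thus held more Hpgd than cyclooxygenase RNA per length in every library, and the CD34- FB of the SI held less in every library. Colonic PDGFRahi FB lay between with 0.328, 0.461 and 0.165, above all 6 libraries of the CD34- FB of the SI. Colonic Fgfr2+ FB (1.45, 1.13 and 0.899) and CD90+ FB (0.748, 1.47 and 0.813) lay on both sides of an even ratio. So did SI pericytes (8.20, 1.98 and 0.0430), at low levels of these genes. SMCs (0.0264, 0.0116 and 0.349) and colonic pericytes (0.00920, 0.167 and 0.0763) held less Hpgd in every library.

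On the same scale, CPM per kilobase, Ptgs1 was the highest of the 10 genes in SI Fgfr2+ FB (139), SI PDGFRahi FB (86.2), colonic PDGFRahi FB (172) and SMCs (33.9). Hpgd was the highest in SI CD34+ FB (114), CD81+ FB (158), CD90+ FB (43.3) and colonic Fgfr2+ FB (61.8). In SI CD34+ FB it did not overlap the next gene, Ptges (29.3), but in CD81+ FB and CD90+ FB it overlapped Ptges, and in colonic Fgfr2+ FB it overlapped Ptgs1. The overlap in CD81+ FB came from replicate 2, with Ptges at 143 CPM per kilobase, beside 32.9 and 11.8 in replicates 1 and 3. In that replicate 44.5% of the Ptges counts lay on the processed transcript Ptges-201. After Ptgs1 came Ptgis in SI PDGFRahi FB (56.7 CPM per kilobase), with no overlap of libraries. In colonic PDGFRahi FB the genes after Ptgs1 were Hpgd (69.5), Ptgs2 (56.8) and Ptges (54.8). Ptges led in SI pericytes at 6.87 CPM per kilobase, overlapping Hpgd, and Ptgs1 in colonic pericytes at 7.99, overlapping Ptges. The Ptgs1 counts of colonic pericytes lay on transcripts other than the protein-coding Ptgs1-201. In SMCs Ptgs1 overlapped Ptgis.

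Ptger4 on chromosome 15 (5206661 to 5244187) and Ptger2 on chromosome 14 (44988195 to 45003820) encode EP4 and EP2, the PGE2 receptors that raise cyclic AMP. Ptger4 was widespread among FB. Colonic Fgfr2+ FB held 105, 70.6 and 86.1 CPM (87.3 ± 17.4), and SI Fgfr2+ FB held 47.9, 91.4 and 80.9 CPM (73.4 ± 22.7). CD90+ FB (62.7 ± 23.0), CD81+ FB (57.6 ± 28.8), colonic PDGFRahi FB (44.7 ± 12.9), SI CD34+ FB (28.1 ± 5.2), SI PDGFRahi FB (25.0 ± 10.2) and SMCs (16.1 ± 12.4) followed, each overlapping the next. SI pericytes had 1 count in each library. Of the 31-base words of Ptger4 transcripts, 15.2% were shared with other genes.

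SI Fgfr2+ FB exceeded the other SI populations in Ptger4 without overlap (adjusted p 0.000468, edgeR quasi-likelihood with Benjamini-Hochberg), but among SI FB alone the log2 fold change was 1.42 ± 0.57 with an adjusted p of 0.328. In SI pericytes the mean of the other 4 SI populations was 254 times as high, with a 95% exact Poisson interval of 86.8 to 1231 on 3 counts (adjusted p 2.6e-05). In colonic pericytes, with 116, 2 and 34 counts, Ptger4 was -3.61 ± 0.78 on the log2 scale (adjusted p 0.00292), with no overlap, and -5.41 without replicate 1.

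Ptger2 was highest in SI Fgfr2+ FB, at 77.5, 23.4 and 43.0 CPM (48.0 ± 27.3). Colonic Fgfr2+ FB held 39.9, 25.3 and 33.3 CPM (32.8 ± 7.31), CD90+ FB averaged 27.4 ± 16.9 and colonic PDGFRahi FB 27.0 ± 6.32. CD81+ FB held 7.33, 0.184 and 0.424 CPM. Each population overlapped the next in the whole order, down to colonic pericytes with 0, 1 and 8 counts and SI pericytes with 1, 1 and 2. SI Fgfr2+ FB were called against the other SI populations (adjusted p 0.00270, edgeR quasi-likelihood with Benjamini-Hochberg), and among SI FB alone the log2 fold change was 1.91 ± 0.71 with an adjusted p of 0.290. In SI pericytes the mean of the other SI populations was 111 times as high, with a 95% exact Poisson interval of 43.3 to 407 on 4 counts (adjusted p 0.000742). In colonic pericytes the log2 fold change was -5.88 ± 1.24 (adjusted p 0.00252), with overlap through CD81+ FB replicates 2 and 3. It was -7.84 without colonic pericyte replicate 3 and -5.10 without CD81+ FB replicate 1.

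Ptger3 on chromosome 3 (157566892 to 157645888) encodes EP3, a PGE2 receptor that lowers cyclic AMP. It never passed 9.09 CPM, the level of SMC replicate 2. SMCs had 8, 92 and 0 counts, and CD90+ FB had 58, 11 and 136. Its call in SMCs had an adjusted p of 0.0125 (edgeR quasi-likelihood, Benjamini-Hochberg), and without SMC replicate 2 it was not called, with an adjusted p of 0.230. It was also lost under DESeq2 (adjusted p 0.0714). All 92 counts of SMC replicate 2 lay on Ptger3-203, a transcript with a retained intron, and with protein-coding transcripts alone Ptger3 was not tested in SMCs. Neither SI pericytes nor SI Fgfr2+ FB had a Ptger3 count.

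Ptgfr on chromosome 3 (151796502 to 151837630) encodes the receptor for PGF2a. It passed 10 CPM on average in CD81+ FB, with 24.2, 11 and 8.56 CPM (14.6 ± 8.40), in colonic Fgfr2+ FB, with 10.8, 20 and 10.9 (13.9 ± 5.25), and in SI CD34+ FB, with 15.1, 15 and 9.83 (13.3 ± 3.02). The 3 overlapped. CD90+ FB, sorted as CD34+ like them, averaged 4.48 CPM. Colonic PDGFRahi FB had 1, 2 and 0 counts, and the mean of the other colonic populations was 64.7 times as high, with a 95% exact Poisson interval of 22.1 to 314 (adjusted p 0.0366, edgeR quasi-likelihood with Benjamini-Hochberg). Single libraries dominated elsewhere, as in SMCs with 0, 2 and 149 counts and SI pericytes with 0, 1 and 75.

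Ptgfr calls in the colon depended on single libraries. For CD81+ FB the adjusted p was 0.0140 in edgeR's quasi-likelihood test with Benjamini-Hochberg adjustment, and 0.107 without CD81+ FB replicate 1 and 0.0708 with all 30 libraries in 1 model. For colonic Fgfr2+ FB it was 0.0490, and the call was lost without CD81+ FB replicate 2 or 3 or any 1 replicate of CD90+ FB, colonic Fgfr2+ FB or colonic PDGFRahi FB, with an adjusted p of up to 0.243, as well as with all 30 libraries in 1 model (0.175) and protein-coding transcripts alone (0.0730). The call of colonic PDGFRahi FB was lost without any 1 of their replicates, or replicate 2 or 3 of CD90+ FB or of colonic Fgfr2+ FB, with an adjusted p of up to 0.183, as well as with all 30 libraries in 1 model (0.15). Among colonic FB alone its adjusted p was 0.0166, and 0.107, 0.0636 and 0.104 without PDGFRahi FB replicates 1, 2 and 3. Fitted sizes are left out, since they contain PDGFRahi FB libraries with 0 to 2 counts.

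The comparison of tissues asked whether FB of the same name differ between the SI and the colon. In PDGFRahi FB, 3 of 9 genes were called, all lower in the SI, against 1.76% of 15673 genes. Ptgs2 was -3.05 ± 0.46 on the log2 scale, an 8.26-fold difference (adjusted p 0.00132, edgeR quasi-likelihood with Benjamini-Hochberg). Ptges was -3.06 ± 0.40, an 8.35-fold difference (adjusted p 0.000305). Hpgd was -2.86 ± 0.69 (adjusted p 0.0422). For each of the 3 genes all SI libraries lay under all colonic ones. Ptgs1 was -1.02 ± 0.25, without overlap and with an adjusted p of 0.0483, but short of the fold required, and Ptgis was 1.91 ± 0.83 with an adjusted p of 0.462, also without overlap. The Ptgs2 and Ptges calls held whichever library was left out. The Hpgd call was lost with all 30 libraries in 1 model (adjusted p 0.123), with protein-coding transcripts alone (0.0605), and without any 1 of the 3 replicates of colonic Fgfr2+ FB, colonic PDGFRahi FB or SI PDGFRahi FB, with values from -3.21 to -2.56 and an adjusted p of up to 0.197.

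In Fgfr2+ FB, 2 of 9 genes were called between the tissues, against 3.09% of 15673 genes. Ptgs1 was 1.57 ± 0.26 higher in the SI on the log2 scale, a 2.96-fold difference (adjusted p 0.00218, edgeR quasi-likelihood with Benjamini-Hochberg), with no overlap. It was called whichever library was left out, but not with all 30 libraries in 1 model (1.53, adjusted p 0.249). Hpgd was -2.89 ± 0.69 (adjusted p 0.0303), also without overlap. Its call was lost without colonic Fgfr2+ FB replicate 1, 2 or 3, colonic PDGFRahi FB replicate 1 or SI Fgfr2+ FB replicate 3, with an adjusted p of up to 0.083, and with all 30 libraries in 1 model (adjusted p 0.0737). Its value was -4.37 without SI Fgfr2+ FB replicate 2. Ptgs2 (-0.51 ± 0.43) and Ptges (0.31 ± 0.37) were not called in Fgfr2+ FB, with adjusted p of 0.589 and 0.719 and libraries that overlapped.

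Whether the tissue difference itself differed between the 2 subsets was tested as an interaction. It was called for 2 of 9 genes, against 1.28% of 15673 genes. For Ptgs1 the tissue difference of PDGFRahi FB minus that of Fgfr2+ FB was -2.59 ± 0.36 on the log2 scale (adjusted p 0.00126, edgeR quasi-likelihood with Benjamini-Hochberg). All 3 colonic libraries were higher in PDGFRahi FB, and all 3 SI libraries were higher in Fgfr2+ FB. For Ptges it was -3.37 ± 0.53 (adjusted p 0.00329), with the same order of PDGFRahi FB and Fgfr2+ FB libraries in each tissue. Both held whichever library was left out, but neither was called with all 30 libraries in 1 model (-2.51 with an adjusted p of 0.277 for Ptgs1, -3.29 with 0.196 for Ptges). Leaving out 1 library gave values from -2.82 to -2.41 for Ptgs1 and from -3.68 to -3.07 for Ptges. For Ptgs2 it was -2.53 ± 0.62 with an adjusted p of 0.0608, which was not called. The Hpgd difference was nearly equal in the 2 subsets, at 0.02 ± 0.91 (adjusted p 1.00), an SE that leaves room for a large difference either way.

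**Figure D3:**
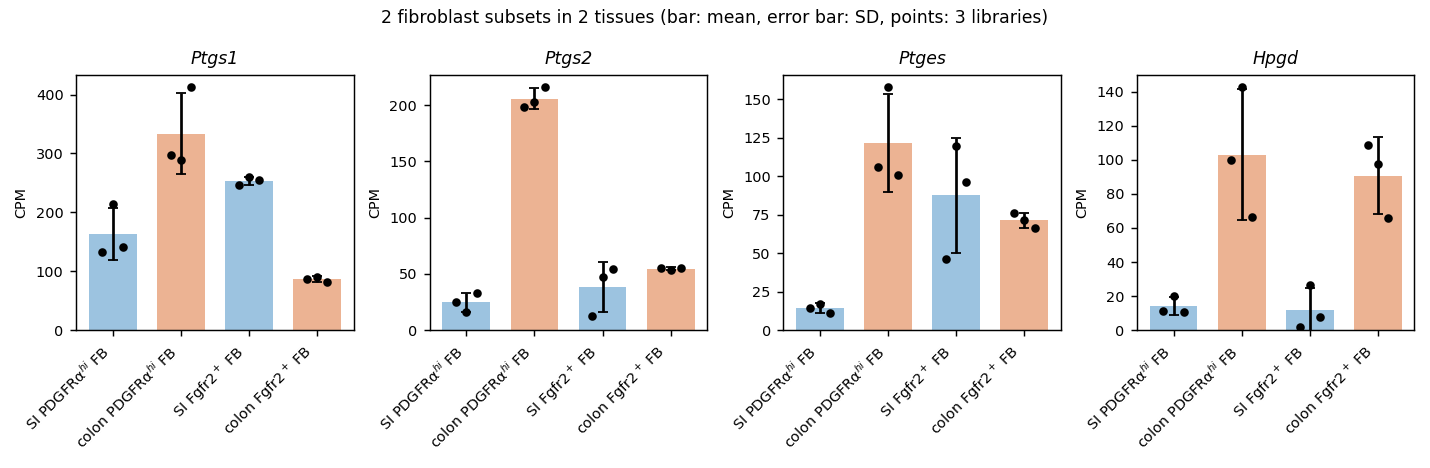
Levels of Ptgs1, Ptgs2, Ptges and Hpgd in CPM in PDGFRahi FB and Fgfr2+ FB of the SI (blue) and colon (orange); bars are means of 3 libraries, error bars are SD and points are libraries. Ptgs1 is higher in the colon for PDGFRahi FB and higher in the SI for Fgfr2+ FB, and Ptges differs between tissues in PDGFRahi FB, at 122 CPM in the colon and 14.4 CPM in the SI.

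SI CD34+ FB were set against the mean of colonic CD81+ FB and CD90+ FB, the CD34+ gates nearest to theirs. There 0 of 9 genes were called by edgeR's quasi-likelihood test, against 1.2% of 16033 genes, with 2 at an unadjusted p under 0.05 and 0 called by DESeq2. Ptgs2 was -1.17 ± 0.50 on the log2 scale (adjusted p 0.361) and Ptger4 was -1.12 ± 0.38 (adjusted p 0.221). Hpgd was 0.45 ± 0.34 (adjusted p 0.659), and its libraries overlapped.

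Other genes of the pathway came from a list of 23, of which 21 had enough counts in each tissue. Pla2g4a encodes the cytosolic phospholipase that frees arachidonic acid. SI Fgfr2+ FB held 162, 240.3 and 253 CPM, and colonic PDGFRahi FB held 162, 285 and 216 CPM. These were the populations in which Ptgs1 was highest in each tissue. Pla2g4a exceeded the other populations by 2.52 ± 0.32 on the log2 scale in SI Fgfr2+ FB (adjusted p 0.000215, edgeR quasi-likelihood with Benjamini-Hochberg), with overlap, and by 3.11 ± 0.30 in colonic PDGFRahi FB (adjusted p 4.6e-06), without. Among FB alone the difference was 1.27 ± 0.39 in SI Fgfr2+ FB (adjusted p 0.169), which was not called, and 1.64 ± 0.33 in colonic PDGFRahi FB (adjusted p 0.00568), a call lost without colonic PDGFRahi FB replicate 2 (1.42, adjusted p 0.0791). Pla2g4a was -4.24 ± 0.50 in SI pericytes and -6.29 ± 0.54 in colonic pericytes (adjusted p 1.4e-05 and 1.7e-07), with no overlap in either tissue.

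Mgll encodes a lipase that releases arachidonic acid from an endocannabinoid. SMCs held 214, 164 and 132 CPM, and SI PDGFRahi FB held 153, 151 and 158 CPM. SI Fgfr2+ FB held 16.5, 13 and 18 CPM, under the 97.2, 37.6 and 88.5 CPM of colonic Fgfr2+ FB. The tissue difference of Fgfr2+ FB was -2.22 ± 0.37 on the log2 scale (adjusted p 0.0025, edgeR quasi-likelihood with Benjamini-Hochberg), with no overlap, and was not called with all 30 libraries in 1 model (-2.26, adjusted p 0.108). Tbxas1, which encodes thromboxane synthase, held 86.0, 80.3 and 53.3 CPM in colonic PDGFRahi FB and 16.3, 14.6 and 17.8 CPM in SI PDGFRahi FB. The difference was -2.16 ± 0.43 (adjusted p 0.0114), without overlap, and was lost without colonic PDGFRahi FB replicate 1 or 2 or SI PDGFRahi FB replicate 1 or 2, with an adjusted p of up to 0.0807, and with all 30 libraries in 1 model (adjusted p 0.0593).

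Abcc4 encodes an exporter of PGE2. SI PDGFRahi FB held 78.1, 94.0 and 138 CPM, and colonic PDGFRahi FB held 146, 173 and 134 CPM. Both lay above every other library of their tissue, by log2 fold changes of 3.03 ± 0.67 (adjusted p 0.0103) and 3.14 ± 0.74 (adjusted p 0.0174) in edgeR's quasi-likelihood test with Benjamini-Hochberg adjustment. The SI call was lost without SI PDGFRahi FB replicate 3, and the colonic call without any 1 of the 3 colonic PDGFRahi FB replicates, with an adjusted p of up to 0.0774 and 0.0866. Without SI pericyte replicate 1, where Abcc4 held 49.4 CPM, the SI value was 3.86. Among FB alone the difference was 2.37 ± 0.81 in SI PDGFRahi FB (adjusted p 0.173), which was not called, and 3.35 ± 0.80 in colonic PDGFRahi FB (adjusted p 0.0205), a call lost without any 1 of their replicates, with an adjusted p of up to 0.0912. Without CD81+ FB replicate 3 that colonic value was 4.02.

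Pericytes held the most RNA of the prostacyclin receptor. Ptgir, which encodes it, held 286, 131 and 95.2 CPM in SI pericytes and 104, 166 and 22.3 CPM in colonic pericytes, above every other library of either tissue bar SMC replicate 3 at 42.5 CPM, which lay above colonic pericyte replicate 3. Its log2 fold change was 6.81 ± 0.70 in SI pericytes (adjusted p 3.1e-06, edgeR quasi-likelihood with Benjamini-Hochberg) and 5.13 ± 0.86 in colonic pericytes (adjusted p 0.000312), with no overlap within a tissue. The SI value was 6.19 without SI pericyte replicate 1 and 7.51 without SMC replicate 3, and the colonic value was 4.49 without colonic pericyte replicate 2. In SI PDGFRahi FB, where Ptgis was highest, Ptgir had 0, 1 and 0 counts. Ptgdr, which encodes a PGD2 receptor, held 121, 13.4 and 33.4 CPM in colonic pericytes, 4.43 ± 0.53 above the other colonic populations on the log2 scale (adjusted p 8.8e-06), and 3.16 without colonic pericyte replicate 1. Ptgfrn, a membrane partner that dampens the PGF2a receptor, averaged 278 to 936 CPM in the FB populations, against 41.5 to 88.4 CPM in pericytes and SMCs.

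In all, the list of 23 had 5 of 21 tested genes called in SI pericytes (1 higher, 4 lower, against 15.5% of all genes) and 6 of 21 in colonic pericytes (2 higher, 4 lower, against 16.6%). SI Fgfr2+ FB had 2 of 21, both higher (against 3.02%), SMCs had 2 (1 higher, 1 lower, against 5.08%), SI PDGFRahi FB had 4 (3 higher, 1 lower, against 4.65%), colonic PDGFRahi FB had 3 (2 higher, 1 lower, against 4.13%), and SI CD34+ FB and CD90+ FB had 1 each, higher (against 4.21% and 1.29%). CD81+ FB and colonic Fgfr2+ FB had 0 of 21 by edgeR's quasi-likelihood test (against 5.96% and 1.49%), each with 3 genes at an unadjusted p under 0.05, and 0 and 1 by DESeq2. Between tissues, 1 of 21 was called in PDGFRahi FB (against 1.76%), 2 in Fgfr2+ FB (3.09%) and 2 in the interaction (1.28%). In pericytes and in the comparison of CD34+ gates none of 19 and 21 were called by edgeR (against 0% and 1.2%), with 1 gene each at an unadjusted p under 0.05, and 1 (Mgll) and 0 by DESeq2. Leaving out 1 library changed some of these counts by more than 1.5 times. SI Fgfr2+ FB had 1, Pla2g4a alone, in the 13 refits that ended the call of Slco2a1, all but those without SI pericyte replicate 1 or 2. SMCs had 4 without SI pericyte replicate 2 or SI Fgfr2+ FB replicate 3, SI CD34+ FB had 2 without SI pericyte replicate 1 or 3, SMC replicate 3 or SI Fgfr2+ FB replicate 3, and colonic PDGFRahi FB had 1 without any 1 of their replicates. Between tissues, PDGFRahi FB had 0 in the 4 refits that ended the call of Tbxas1, and Fgfr2+ FB had 1 without colonic Fgfr2+ FB replicate 2 or 3. The interaction had 1 without colonic Fgfr2+ FB replicate 2 or 3, colonic PDGFRahi FB replicate 1 or 2 or SI PDGFRahi FB replicate 1 or 2, and 4 without colonic Fgfr2+ FB replicate 1. The Slco2a1 call between the Fgfr2+ FB of the tissues was lost without any 1 of the colonic Fgfr2+ FB replicates or SI Fgfr2+ FB replicate 2, with an adjusted p of up to 0.11.

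Among FB alone the calls of the same list were partly of other genes. SI CD34+ FB had 1 of 21 (Ptgir higher, against 2.51% of all genes), SI Fgfr2+ FB had 2 (Mgll and Ptgfrn lower, against 0.967%) and SI PDGFRahi FB had 2 (Mgll higher and Ptgir lower, against 3.12%). In the colon, CD81+ FB had 1 (Pla2g4a lower, against 3.71%) and PDGFRahi FB had 3 (Pla2g4a, Tbxas1 and Abcc4 higher, against 3.51%). CD90+ FB and colonic Fgfr2+ FB had 0 of 21 by edgeR's quasi-likelihood test (against 0.115% and 0.146%), with 1 and 2 genes at an unadjusted p under 0.05 and 0 by DESeq2. Without 1 library these counts ran from 1 to 2 in SI CD34+ FB, 0 to 3 in SI Fgfr2+ FB, 1 to 3 in SI PDGFRahi FB, 0 to 1 in CD81+ FB and 0 to 4 in colonic PDGFRahi FB.

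The list of 6 leukotriene and other lipoxygenase genes, from neighbouring branches of arachidonic acid, had 4 genes with enough counts in the SI. It had 3 in each of the other comparisons. There was 1 call by edgeR in the 15 comparisons, that of 1 of 4 in SI pericytes against 15.5% of all genes. The gene called, Alox15, is one of the other lipoxygenases. It held 46.9, 32.4 and 12.6 CPM in SI pericytes, with 0 to 3 counts in each of the other 27 libraries. It had enough counts for a test only through these 3 libraries, and was not tested without any 1 of them. In the other 14 comparisons the list had 0 calls by edgeR, at most 1 gene in each at an unadjusted p under 0.05, and 1 call by DESeq2 (Alox15, between the pericytes of the tissues).

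Across the 10 population means of log2 CPM, the members' patterns were compared by Pearson correlation, given as a description without a test. The points share libraries, depth and the same sorting, and pericytes at low values weigh on many of them. Ptgs2 and Ptger4 were the most alike pair of members, at r = 0.927 (n = 10 population means), followed by Ptgs2 and Ptger2 at 0.882, Ptgs1 and Ptger2 at 0.880 and Ptgs1 and Ptgs2 at 0.862. Ptges was most like Hpgd, at 0.814, while the 2 synthases Ptges and Ptgis stood at 0.283.

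Among the 11931 genes searched, Ptgs1 was most like Suclg1 (r = 0.948, n = 10 population means), Gja1 (0.947) and Zfp57 (0.946), and Ptgs2 was most like Loxl2 (0.975), Mrpl52 (0.972) and Sdk1 (0.969). Ptges was most like Pole2 (0.95), Baiap2 (0.931) and Rnf149 (0.915). Ptgis was most like Creb3l2 (0.978), Slc36a1 (0.947) and Ryk (0.944). For Hpgd the nearest were Ly6c1 (0.969), Sgta (0.967) and Hmga1 (0.960). For Ptger2 they were Slc35a1 (0.975), Mycn (0.970) and Supt3 (0.961), and for Ptger4 they were Vcan (0.993), Zfp35 (0.979) and Mmp19 (0.976). Ptgfr was nearest to Fam198a (0.973), Dnah8 (0.956) and Srrm4 (0.945), and Ptger3 to Clybl (0.895), Abtb2 (0.889) and Svopl (0.882). Ptgds, with counts in few libraries, gave Adgrg2 (0.984), Pthlh (0.965) and Atp1b1 (0.957).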

How the data were processed

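RNA of 10 sorted mesenchymal populations of mouse small intestine and colon, 3 libraries each, was analysed from the deposited transcript tables. The authors trimmed reads with Trim Galore 0.4.0, checked them with FastQC 0.11.2 and pseudo-aligned them with kallisto 0.42.5. The deposited values are an estimated count and a TPM for each of 98492 transcripts per library. TPM was not used. Estimated counts of the 97116 transcripts matched to the GENCODE M21 annotation (GRCm38) were added up per gene, which gave 32342 genes, and each sum was rounded to an integer. Libraries held between 2245052 and 19096945 estimated counts, and a gene at 3 counts or fewer in each library of a population was treated as at the floor. A gene was tested when 3 or more libraries of a fit had 6 or more counts of it. Tests used edgeR 4.0.16 (limma 3.58.1, R 4.3.3) with TMM factors and quasi-likelihood tests, adjusted by Benjamini-Hochberg over the genes tested. A prior count of 2 was used for log2 CPM alone. The pipeline was tested on simulated data.

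Each population was compared with the unweighted mean of the other 4 of its tissue. PDGFRahi and Fgfr2+ fibroblasts were compared between tissues, with the interaction, as were pericytes and the CD34+ gates. Alternatives were RLE factors, DESeq2 1.42.0, no filter on low counts, the replicate number as a block, all 30 libraries in 1 model, and leaving out each library. Fibroblasts alone and protein-coding transcripts alone were added after seeing the data. The lists named hold the 10 members, 23 pathway genes, 6 leukotriene and other lipoxygenase genes, 11 immediate early genes and cell type markers. Also named are the 3 genes most like each member among those averaging at least 10 CPM in some population, predicted genes left out. These lists and the planned comparisons were fixed before the data were examined, but with earlier results of these data known. Levels per kilobase used the effective length of each transcript in the deposited tables.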

Additional observations from a re-analysis of the deposited data

Results flagged for a closer look

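For 2 of 9 members, 2 of 21 other pathway genes and 2 of 11 immediate early genes, against 1.28% of 15673 genes, the difference between SI and colon was not the same in PDGFRahi FB and Fgfr2+ FB, by the interaction term of edgeR's quasi-likelihood test. The values are the log2 fold change of SI over colon in PDGFRahi FB minus that in Fgfr2+ FB, with Benjamini-Hochberg adjusted p. For Ptgs1 the value was -2.59 (adjusted p 0.00126), for Ptges it was -3.37 (adjusted p 0.00329), and for Mgll it was 3.22 (adjusted p 0.00329). These 3 were called in all 12 refits without 1 library, but not with all 30 libraries in 1 model (adjusted p 0.277, 0.196 and 0.149). For Tbxas1 it was -2.96 (adjusted p 0.0175), a call lost without colonic Fgfr2+ FB replicate 2 or 3, colonic PDGFRahi FB replicate 1 or 2 or SI PDGFRahi FB replicate 1 or 2, with values from -3.17 to -2.78 and an adjusted p of up to 0.0793. It was also lost with all 30 libraries in 1 model (adjusted p 0.0916) and with protein-coding transcripts alone (1.00). Of the 11 immediate early genes, Egr1 stood at 2.16 (adjusted p 0.0170) and Dusp1 at 4.07 (adjusted p 0.00254), and both were called with all 30 libraries in 1 model (0.0323 and 0.00379). Egr1 was lost without colonic Fgfr2+ FB replicate 2 or 3, colonic PDGFRahi FB replicate 1 or 2 or SI PDGFRahi FB replicate 1, with an adjusted p of up to 0.0649. Dusp1 was called in all 12 refits, and stood at 4.79 without SI Fgfr2+ FB replicate 3.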

How the results depend on the processing

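Over 39 results of single genes with an adjusted p under 0.05, of which 38 were called, RLE factors kept 39 on the same side of the threshold, DESeq2 38, no filter on low counts 38, the replicate block 35 and all 30 libraries in 1 model 29. Protein-coding transcripts alone, chosen after seeing the data, kept 33 of 38. Over 57 fits without 1 library, 496 of 561 values stayed on the same side and 65 were weaker. None of these alternatives turned a direction. Among fibroblasts alone, also chosen after seeing the data, 5 of 18 values stayed, 10 were weaker and 3 reversed, namely Ptgs2 in SI CD34+ FB (-0.82), Ptgs2 in SI PDGFRahi FB (-0.014) and Hpgd in colonic PDGFRahi FB (-0.086). That contrast leaves pericytes and SMCs out of the means compared by construction, but their libraries stayed in the fit. The number of members called changed by over 1.5 times as follows. Fibroblasts alone gave 1 in SI CD34+ FB in place of 3, 0 in SI Fgfr2+ FB in place of 5, 1 in CD81+ FB (Ptgs1 lower) in place of 2 (Hpgd and Ptgfr higher) and 0 in colonic Fgfr2+ FB in place of 1. DESeq2 gave 1 in CD90+ FB in place of 0 and 3 in colonic Fgfr2+ FB in place of 1. No filter gave 1 and 2 there. Protein-coding transcripts gave 1 in CD90+ FB and 1 in SMCs in place of 3. The replicate block gave 1 in SMCs and 0 in colonic Fgfr2+ FB. Not called under it were Hpgd (adjusted p 0.0974) and Ptger3 (0.0580) in SMCs and Ptgfr in colonic Fgfr2+ FB (0.0670) and colonic PDGFRahi FB (0.0518); whether a replicate number marks a mouse is not stated. Of same-number correlations, 1 of 30 in the SI and 0 of 30 in the colon exceeded 0.1, while 10 of 15 SI and 9 of 15 colonic libraries were most like one of their own number. All 30 libraries in 1 model gave 1 in CD81+ FB, 0 in Fgfr2+ FB between tissues in place of 2, 0 in the interaction in place of 2 (Ptgs1 -2.51, adjusted p 0.277, and Ptges -3.29, adjusted p 0.196) and 3 in pericytes between tissues (Ptgis, Hpgd and Ptger4, of 9 tested) in place of 0. Over all genes it called 166 in PDGFRahi FB between tissues in place of 276, 255 in Fgfr2+ FB in place of 485, 116 in the interaction in place of 201, 998 of 17555 in pericytes in place of 0 of 13368, and 113 in the CD34+ gates in place of 192. DESeq2 called 521, 1081, 563, 348 and 427 there, 925 in SI Fgfr2+ FB in place of 490, 340 in CD90+ FB in place of 213 and 421 in colonic Fgfr2+ FB in place of 246. No filter gave 408 in the last, 339 in the interaction and 18 in pericytes between tissues. Among SI fibroblasts alone DESeq2 called 558 in CD34+ FB, 549 in Fgfr2+ FB and 809 in PDGFRahi FB. Colonic fibroblasts alone gave 986 in CD81+ FB, 83 in CD90+ FB, 112 in Fgfr2+ FB and 848 in PDGFRahi FB. In these 7 contrasts edgeR called 407, 157, 507, 611, 19, 24 and 578. The cause was not tested. Without 1 library the counts ran from 5 to 5 in SI pericytes, 1 to 3 in SMCs, 1 to 5 in SI CD34+ FB, 5 to 5 in SI Fgfr2+ FB and 2 to 4 in SI PDGFRahi FB. In the colon they ran from 5 to 7 in pericytes, 2 to 2 in CD81+ FB, 0 to 1 in CD90+ FB, 0 to 4 in Fgfr2+ FB and 2 to 5 in PDGFRahi FB. Between tissues they ran from 2 to 3 in PDGFRahi FB, 1 to 2 in Fgfr2+ FB, 2 to 3 in the interaction, and 0 to 0 in pericytes and in the CD34+ gates. Over all genes, counts moved by over 1.5 times without 1 library, down to 508 in SMCs, 352 in SI CD34+ FB, 242 in SI Fgfr2+ FB, 482 in SI PDGFRahi FB, 129 in CD90+ FB, 134 in colonic Fgfr2+ FB, 424 in colonic PDGFRahi FB, and, between tissues, 183 in PDGFRahi FB, 274 in Fgfr2+ FB and 69 to 388 in the CD34+ gates. Depth limited 18 pairs of a gene and a population, in which no library passed 3 counts and a level at or under the floor cannot be told apart from none.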
